A study of Mus musculus with 4 samples.

Results

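The Ifitm family was examined in cardiac neutrophils after myocardial ischemia and reperfusion (MI/R), by RNA-Seq. The analysis covers 4 genes, *Ifitm1*, *Ifitm2*, *Ifitm3* and *Ifitm6*, of the 7 genes in the files whose symbol begins with Ifitm, among 25655 genes in all. The members were chosen by name and by their measured level in these same libraries: the lowest of them, *Ifitm6*, had a mean of 923 TPM (a level in transcripts, normalised for length and library size) over the 4 libraries, and the next gene of the name outside the group, *Ifitm5*, had 6.28 TPM. Whether their ratios between libraries also bore on the choice is not given in the sources used here, so levels, ratios and ranks are all a description and not a test.

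Cells were sorted from hearts on day 3 after MI/R as CD45.2, CD11b and Ly6G positive, and were then separated by the surface lectin SiglecF into SiglecF hi and SiglecF lo neutrophils. Both subsets were taken from wild-type (WT) mice and from *Cd300a-/-* mice, which lack the inhibitory receptor CD300a in all cells; all were adult males on a C57BL/6 background that had undergone occlusion and reopening of the left anterior descending artery. Each of the 4 libraries came from a pool of 8 hearts, with 1 library per group, so no test was made and no difference between 2 libraries has a replicate. The SiglecF hi libraries held 19278243 (WT) and 17632989 (*Cd300a-/-*) counts, and the SiglecF lo libraries 9631901 (WT) and 10988619 (*Cd300a-/-*). Intervals are 95% intervals from the counts and cover counting error only, not differences between mice or preparations.

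IFITM proteins are small membrane proteins with a CD225 domain that block the fusion of enveloped viruses with the host membrane. IFITM1 resides mainly at the cell surface, while IFITM2 and IFITM3 act in endosomes and lysosomes, and their genes lie in 1 cluster and are classical targets of type I and type II interferon. *Ifitm6* is a less studied mouse member of the cluster, and *Ifitm5* is known from bone-forming cells.

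The labels were first checked in the data. *Cd300a* reached 163 TPM (SiglecF hi) and 127 TPM (SiglecF lo) in cells of WT mice, and 0.740 and 1.06 TPM in the corresponding *Cd300a-/-* libraries. *Siglecf* was at 354 and 405 TPM in the SiglecF hi libraries of WT and *Cd300a-/-* mice and at 11.3 and 15.3 TPM in the SiglecF lo libraries. Both genes thus followed the labels of all 4 libraries.

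*Ifitm2*, the endosomal member with the highest level in each library, was at 2467 and 2754 TPM in SiglecF hi cells of WT and *Cd300a-/-* mice, and at 4503 and 5588 TPM in their SiglecF lo cells. By TPM it ranked 47, 42, 20 and 17 among all genes, and this order of libraries is kept wherever 4 values follow each other. Both SiglecF lo libraries were above both SiglecF hi libraries, and within each subset the *Cd300a-/-* library was the higher. The 4 values rested on 14178, 14171, 15155 and 20748 counts.

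*Ifitm3*, the endosomal member best known for restricting influenza virus, was at 1821, 1934, 2904 and 2554 TPM in the same order of libraries. It was higher in SiglecF lo than in SiglecF hi neutrophils, and was the single member whose highest level was in WT SiglecF lo neutrophils. The counts were 10835, 10301, 10116 and 9817.

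*Ifitm1*, which encodes the cell surface member, was at 764, 804, 2021 and 3477 TPM. The SiglecF hi libraries lay close together, and the *Cd300a-/-* SiglecF lo library stood above the other 3. Its rank by TPM was 212, 206, 60 and 26.

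*Ifitm6* had the widest range of the members, with 98.0, 271, 553 and 2771 TPM in the same order of libraries, from 778, 1923, 2573 and 14214 counts. Its rank rose from 1485 in WT SiglecF hi to 39 in *Cd300a-/-* SiglecF lo neutrophils. In both subsets it was higher without CD300a, and in both genotypes it was higher in SiglecF lo cells.

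**Figure D1:**
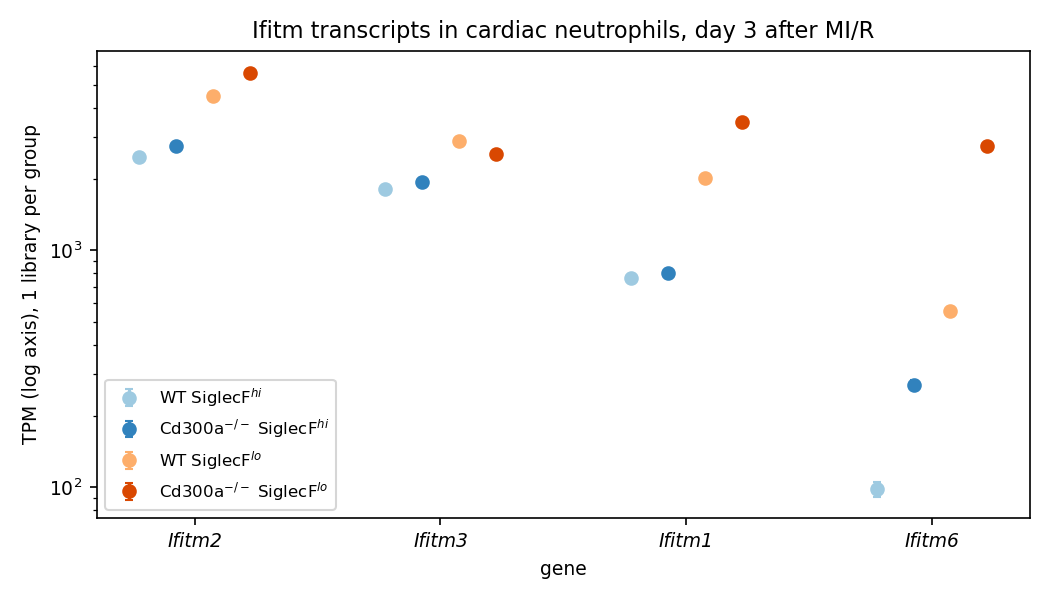
Level of the 4 Ifitm genes in each of the 4 libraries in TPM on a log axis, with 95% counting intervals as bars, mostly smaller than the points. *Ifitm6* spans 98.0 to 2771 TPM, while *Ifitm3* spans 1821 to 2904 TPM.

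The order of the members by TPM was *Ifitm2*, *Ifitm3*, *Ifitm1* and *Ifitm6* in 3 libraries, while in SiglecF lo cells lacking CD300a it was *Ifitm2*, *Ifitm1*, *Ifitm6* and *Ifitm3*. In that library *Ifitm3* was at 0.922 times the TPM of *Ifitm6* (0.898 to 0.946), against 5.25 times (5.03 to 5.48) in WT SiglecF lo neutrophils and 18.6 times (17.3 to 20.0) in WT SiglecF hi neutrophils. Counting intervals of neighbours in the order did not overlap in any library. These ratios are taken within a library and do not depend on the scaling between libraries.

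Summed over the 4 members, the family made up 5149 ± 56.4 and 5763 ± 62.9 TPM in SiglecF hi cells of WT and *Cd300a-/-* mice, and 9981 ± 101 and 14390.1 ± 112 TPM in their SiglecF lo cells (± gives the width of the 95% counting interval to each side). This was 0.515%, 0.576%, 0.998% and 1.44% of the TPM of each library. The make-up of the sum differed as well: *Ifitm6* gave 1.90%, 4.69%, 5.54% and 19.3% of it, and *Ifitm3* gave 35.4%, 33.6%, 29.1% and 17.8%. In a bulk library, fewer cells that express a gene and less RNA per cell cannot be told apart.

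The other genes with an Ifitm name or a CD225 domain were at lower levels. *Ifitm5* was at 8.94, 12.1, 1.02 and 3.00 TPM, higher in SiglecF hi cells and so opposite in direction to the 4 members, from 60, 73, 4 and 13 counts. *Ifitm10* ranged from 0.758 to 2.41 TPM, and *Ifitm7*, the one Ifitm gene here on chromosome 16, had 5 counts in *Cd300a-/-* SiglecF hi neutrophils and 0 in the other 3 libraries. None of the 10 genes of the list reached a mean of 10 TPM.

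To compare genotypes and subsets, ratios were taken as log2 of TPM + 1, over the 6523 genes with a mean TPM over 10, and a gene was called higher or lower past 0.5 in either direction. All 4 members passed this filter. The comparisons share libraries, and each is given with its own values.

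Loss of CD300a was compared first in SiglecF lo neutrophils. *Ifitm6* was higher by 2.32 (2.26 to 2.38), which is 5.00-fold and the rank of 17 from the top among 6523 genes, and *Ifitm1* was higher by 0.78 (0.75 to 0.82), or 1.72-fold. *Ifitm2* was at 0.31 (0.28 to 0.34) and *Ifitm3* at -0.18 (-0.23 to -0.14), both within the limit of 0.5. Called higher were therefore 2 of the 4 members, beside 16.4% of all genes, and 0 were called lower, beside 19.9%, with a median of -0.02 over all genes. The family sum was higher by 0.53 (0.51 to 0.55), just past the limit, and by 0.44 with RPKM (reads normalised for gene length and depth) in place of TPM, which is within it.

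In SiglecF hi neutrophils the genotypes were closer. *Ifitm6* was higher without CD300a by 1.46 (1.34 to 1.58), or 2.74-fold, and ranked 14 from the top. The other members were at 0.16 (0.13 to 0.19) for *Ifitm2*, 0.09 (0.05 to 0.13) for *Ifitm3* and 0.07 (0.03 to 0.12) for *Ifitm1*. Thus 1 of the 4 members was called higher, where 3.31% of all genes were, and 0 were called lower, where 3.46% were. The family sum differed by 0.16 (0.14 to 0.18) and the median of all genes was 0.04.

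The ratio of *Cd300a-/-* to WT in SiglecF lo minus that in SiglecF hi cells was 0.87 (0.73 to 1.00) for *Ifitm6*, 0.71 (0.65 to 0.77) for *Ifitm1*, 0.15 (0.11 to 0.20) for *Ifitm2* and -0.27 (-0.33 to -0.22) for *Ifitm3*. For the family sum it was 0.37 (0.34 to 0.39). Of all genes, 33.4% had a lower difference than *Ifitm3*, and 95.5% a lower one than *Ifitm6*. *Ifitm3* was thus the one member with genotype ratios of opposite sign in the subsets, and its sign in each subset was kept under each scaling that was tried. Whether such differences exceed those between mice was not testable with 1 library per group.

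The subsets were compared next within each genotype, and here the scaling matters. The 10 most abundant genes took 12.3% and 11.8% of TPM in the SiglecF hi libraries of WT and *Cd300a-/-* mice, but 22.8% and 26.7% in the SiglecF lo libraries, and all genes together had a median ratio between SiglecF hi and SiglecF lo cells of 0.53 in WT and 0.61 in *Cd300a-/-* mice. Of all genes 51.9% were called higher and 7.47% lower in WT SiglecF hi cells, and 56.6% higher and 7.97% lower in *Cd300a-/-* SiglecF hi cells. Of the genes called in WT, 87.4% were higher in SiglecF hi cells by TPM, 48.8% by counts scaled with TMM factors and 42.7% with DESeq2 size factors; in *Cd300a-/-* cells these shares were 87.7%, 52.5% and 44.7%. Ratios relative to the median of all genes are therefore given beside those by TPM for the members. On that scale 19.3% of all genes were called higher and 20.9% lower in WT, and 21.2% and 23.6% in *Cd300a-/-* mice.

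In WT mice, *Ifitm6* was lower in SiglecF hi than in SiglecF lo cells, with a log2 ratio of -2.49 (-2.60 to -2.37), or -3.01 relative to the median gene. *Ifitm1* had -1.40 (-1.45 to -1.36) and -1.93. *Ifitm2* had -0.87 (-0.90 to -0.83) and -1.39, and *Ifitm3* had -0.67 (-0.71 to -0.63) and -1.20. All 4 members were thus called lower in SiglecF hi cells of WT mice by TPM, where 7.47% of all genes were, and under the other scalings, with 21.0% of all genes lower by TMM and 23.8% by DESeq2 factors. The family sum had -0.95 (-0.98 to -0.93), a 1.94-fold higher level in SiglecF lo cells, and -1.48 relative to the median gene.

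In *Cd300a-/-* mice the spread between members was wider. *Ifitm6* was 10.2-fold lower in SiglecF hi cells, with a log2 ratio of -3.35 (-3.42 to -3.28), or -3.97 relative to the median gene. *Ifitm1* was 4.32-fold lower, at -2.11 (-2.15 to -2.07) and -2.72. *Ifitm2* had -1.02 (-1.05 to -0.99) and -1.63. *Ifitm3* had -0.40 (-0.44 to -0.36) and was the one member within 0.5 by TPM, although it was at -1.01 relative to the median gene and past -0.5 under each other scaling (-0.98 with TMM factors). Called lower by TPM were 3 of the 4 members, beside 7.97% of all genes, and the family sum had -1.32 (-1.34 to -1.30), or -1.93 relative to the median gene.

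**Figure D2:**
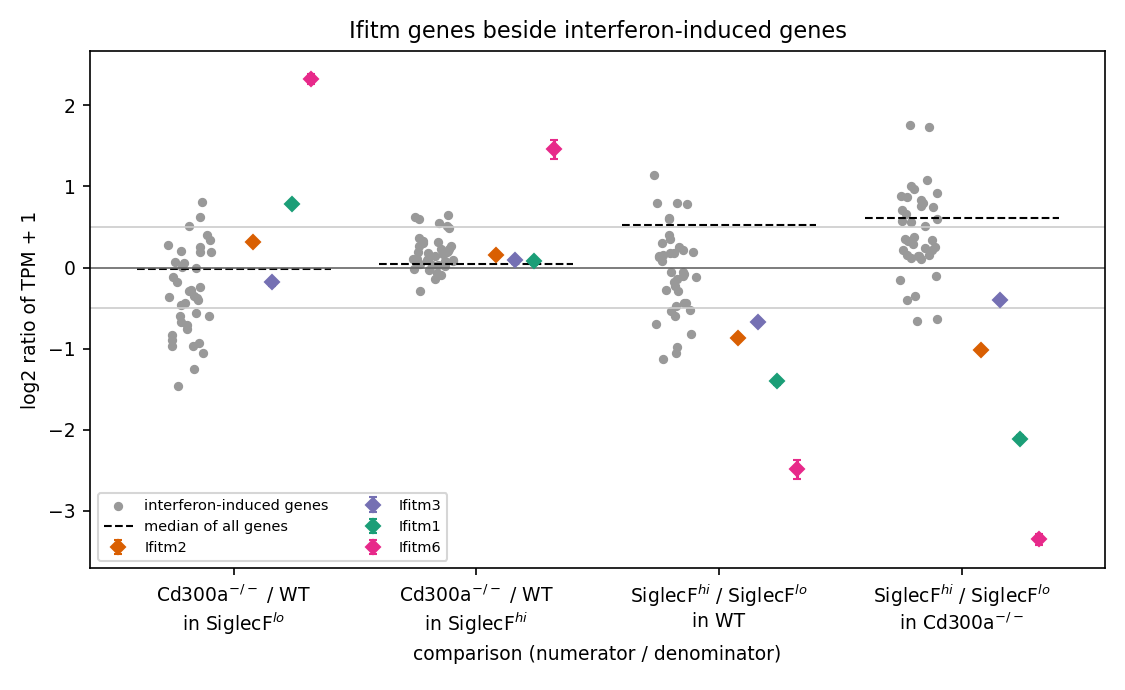
Log2 ratio of TPM + 1 in the 4 comparisons for the Ifitm genes (diamonds, with 95% counting intervals as bars) and 39 other interferon-induced genes (grey points, spread sideways for sight); the dashed line is the median of 6523 genes and the pale lines mark 0.5 in each direction. *Ifitm6* lies at 2.32 in the comparison of genotypes in SiglecF lo cells, where the grey points have a median of -0.35.

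Because Ifitm genes are interferon targets, other genes of that pathway were read beside them in lists. Ligands were hardly seen: of 7 interferon genes, *Ifng* had a level of 1.90 TPM in *Cd300a-/-* SiglecF hi neutrophils, *Ifna1* of 1.20 TPM in WT SiglecF hi and *Ifnb1* of 0.941 TPM in *Cd300a-/-* SiglecF lo neutrophils, from 18, 6 and 4 counts, and all other values were 0. Receptors were present throughout. *Ifngr1*, a chain of the receptor for type II interferon, was at 260, 292, 254 and 297 TPM. The receptor genes *Ifngr1*, *Ifngr2*, *Ifnar1* and *Ifnar2* stayed within 0.5 between genotypes. Between subsets they did so by TPM, but with TMM factors *Ifngr1* was just past the limit in WT (-0.50) and past it in *Cd300a-/-* mice (-0.60), as was *Ifngr2* in *Cd300a-/-* mice (-0.51).

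Of the 14 receptor and signalling genes over the TPM limit, 1 was called higher and 2 lower without CD300a in SiglecF lo neutrophils, with a median of 0.02, beside 16.4% and 19.9% of all genes. *Jak2*, a kinase of interferon and cytokine receptors, was higher by 0.71, and the transcription factor *Stat2* was among the lower, at -0.58. *Irf9*, which acts in the complex that binds interferon-stimulated response elements, was at 0.39, *Irf1* at -0.23, *Irf8* at -0.21 and *Irf7* at -0.09. In SiglecF hi neutrophils 0 of the 14 genes were called, beside 3.31% of all genes higher and 3.46% lower, with a median of 0.17.

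Between subsets, 3 of the 14 were called higher in SiglecF hi cells of WT mice with a median of 0.18, and 7 in *Cd300a-/-* mice with a median of 0.53, while 0 were called lower in either. Over all genes 51.9% and 56.6% were called higher, and 7.47% and 7.97% lower. Relative to the median of all genes the list medians were -0.34 and -0.08, with 1 higher and 2 lower in WT (all genes 19.3% and 20.9%) and 0 higher and 3 lower in *Cd300a-/-* mice (all genes 21.2% and 23.6%). *Stat2* had ratios of -0.06 in WT and 0.86 in *Cd300a-/-* cells.

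Of 42 other interferon-induced genes, 39 were over the TPM limit. In SiglecF lo neutrophils without CD300a, 3 of them were called higher and 14 lower, beside 16.4% and 19.9% of all genes, with a median of -0.35 beside -0.02 over all genes. *Ifit1*, which binds foreign RNA, went from 221 TPM in WT to 79.8 TPM in *Cd300a-/-* cells (-1.46), and *Bst2*, which tethers budding viruses at the membrane, from 233 to 97.6 TPM (-1.25). *Ifit2* had -1.06 and the ubiquitin-like modifier *Isg15* -0.97. Higher were *Slfn4*, from 822 to 1440 TPM (0.81), *Oas2* (0.62) and *Phf11d* (0.51). *Ifitm1* and *Ifitm6* were therefore called higher in the same library in which more of the list was called lower than higher.

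In SiglecF hi neutrophils without CD300a, 5 of the 39 were called higher and 0 lower, beside 3.31% and 3.46% of all genes, with a median of 0.17 beside 0.04. The 4 largest ratios were those of *Slfn4* (0.65), *Oas2* (0.62), *Samd9l* (0.60) and *Ifit2* (0.55). None of these reached the 1.46 of *Ifitm6*.

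Between subsets of WT mice, 6 of the 39 were called higher and 8 lower in SiglecF hi cells, with a median of -0.06, beside 51.9% and 7.47% of all genes. Relative to the median gene the median was -0.58, with 1 called higher and 21 lower, beside 19.3% and 20.9% of all genes on that scale. *Isg15* was lowest at -1.12, followed by *Rtp4* at -1.05, *Oas3* at -0.98 and *Ifit1* at -0.83, and *Phf11d* was highest at 1.14. In *Cd300a-/-* mice 18 were called higher and 2 lower, with a median of 0.35, beside 56.6% and 7.97% of all genes. Relative to the median gene the median was -0.27, with 2 called higher and 7 lower, beside 21.2% and 23.6% of all genes. The largest ratios there were those of *Bst2* (1.76), *Ifit2* (1.73), *Herc6* (1.07) and *Ifi47* (1.01), and the lowest those of *Oas3* (-0.66) and *Slfn4* (-0.63). The direction of this median by TPM turned under TMM factors, to -0.20, and under DESeq2 size factors, to -0.29.

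Other restriction factors of viruses numbered 11 over the limit. Without CD300a, 5 were called higher and 0 lower in SiglecF lo cells, with a median of 0.22, beside 16.4% and 19.9% of all genes. *Ch25h*, which makes an oxysterol that blocks viral fusion, went from 7.58 to 25.4 TPM (1.62), and the RNA helicase *Mov10* from 27.0 to 57.5 TPM (1.06). In SiglecF hi cells 1 was higher, *Serinc5* (0.66), and 2 were lower, *Trim25* (-0.63) and *Ch25h* (-0.62), with a median of 0.09, beside 3.31% and 3.46% of all genes. In SiglecF hi against SiglecF lo cells, 5 were higher and 3 lower in WT with a median of 0.18, and 1 was higher and 4 lower in *Cd300a-/-* mice with a median of -0.05. Of all genes 51.9% were higher and 7.47% lower in WT, and 56.6% and 7.97% in *Cd300a-/-* mice. Relative to the median gene the balance in WT turned, to 1 higher and 4 lower (median -0.35; all genes 19.3% and 20.9%), and in *Cd300a-/-* mice 0 were higher and 7 lower (median -0.66; all genes 21.2% and 23.6%). *Mov10* was lower in both, at -0.80 and -1.65.

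Genes for proteins that modify, sort or bind IFITM proteins numbered 13 over the limit. Of these 2 were called higher and 2 lower without CD300a in SiglecF lo cells, with a median of -0.11, beside 16.4% and 19.9% of all genes. The endocytic adaptor subunit *Ap2b1* had 0.96 and the kinase *Fyn* 0.52. The protease *Zmpste24*, a partner in antiviral defence, had -0.83. The ubiquitin ligase *Nedd4*, which marks IFITM3 for degradation, had -0.66. In SiglecF hi cells *Nedd4* was the 1 gene called, at -0.62, beside 3.31% of all genes higher and 3.46% lower, and the median was -0.16. Between subsets 8 were higher in SiglecF hi cells in each genotype, beside 51.9% of all genes in WT and 56.6% in *Cd300a-/-* mice, with medians of 0.73 and 0.58. Relative to the median gene 2 were higher and 1 lower in WT (median 0.20; all genes 19.3% and 20.9%), and 1 was higher and 2 were lower in *Cd300a-/-* mice (median -0.03; all genes 21.2% and 23.6%). By TPM *Cd63*, a tetraspanin of late endosomes, had 1.47 and 1.42. The tetraspanin *Cd9* was the 1 gene called lower in WT by TPM, at -0.59, and 0 were in *Cd300a-/-* mice, beside 7.47% and 7.97% of all genes.

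Markers of the sorted and of other cell types moved with some of these results, and their part in them was not tested. The 9 neutrophil markers summed to 28414, 33470, 155316 and 203909 TPM, the same order as the Ifitm sum, with *S100a9* and *S100a8* the most abundant. Not every marker followed that order: *Ptprc* was at 646, 710, 608 and 683 TPM. Called lower in SiglecF hi cells were 5 of the 9 in WT and 7 in *Cd300a-/-* mice, beside 7.47% and 7.97% of all genes. In either genotype 0 were called higher, beside 51.9% and 56.6% of all genes. Relative to the median gene 8 were lower in WT and 9 in *Cd300a-/-* mice (all genes 20.9% and 23.6%). On that scale 0 were higher in either (all genes 19.3% and 21.2%). *Ly6g*, the sorting marker, was at 11.1, 41.9, 330 and 889 TPM and so followed the order of *Ifitm6*. Called higher without CD300a were 4 of the 9 in SiglecF lo and 2 in SiglecF hi cells, beside 16.4% and 3.31% of all genes.

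The sum of the 10 monocyte and macrophage markers ran the other way between subsets, at 7437, 6660, 3043 and 2797 TPM. *C1qb* was the most abundant by mean. In SiglecF hi cells 6 of the 10 were called higher in WT and 9 in *Cd300a-/-* mice, beside 51.9% and 56.6% of all genes. In either genotype 0 were lower, beside 7.47% and 7.97%. Not every marker followed the sum: *Ccr2* was at 65.2, 53.2, 65.2 and 50.6 TPM. Relative to the median gene 6 were higher and 1 lower in WT (all genes 19.3% and 20.9%). In *Cd300a-/-* mice 4 were higher and 1 lower on that scale (all genes 21.2% and 23.6%). Fibroblast markers summed to 1546, 1109, 718 and 665 TPM (5 genes, led by *Dcn*), endothelial markers to 79.2, 97.0, 137 and 47.1 TPM (6 genes, led by *Pecam1*) and cardiomyocyte markers to 31.5, 45.7, 27.8 and 12.5 TPM (4 genes, led by *Tnnt2* in the SiglecF hi and by *Actc1* in the SiglecF lo libraries). Lymphocyte and eosinophil markers were low: the eosinophil sum was at most 6.02 TPM, with *Epx* at 0 in all 4 libraries, the T and NK cell sum at most 7.90 TPM and the B cell sum at most 7.10 TPM.

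The members lie together on chromosome 7, from 140534750 to 140597837 in the coordinates of the files, for which the submitters' processing notes name GRCm39. *Ifitm2* (140534750 to 140535900), *Ifitm3* (140589499 to 140590683) and *Ifitm6* (140595612 to 140597837) are on the minus strand, and *Ifitm1* (140547134 to 140549738) is on the plus strand. The adjacent *Ifitm3* and *Ifitm6* differed most in their change between genotypes in SiglecF lo cells, at -0.18 and 2.32.

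**Figure D3:**
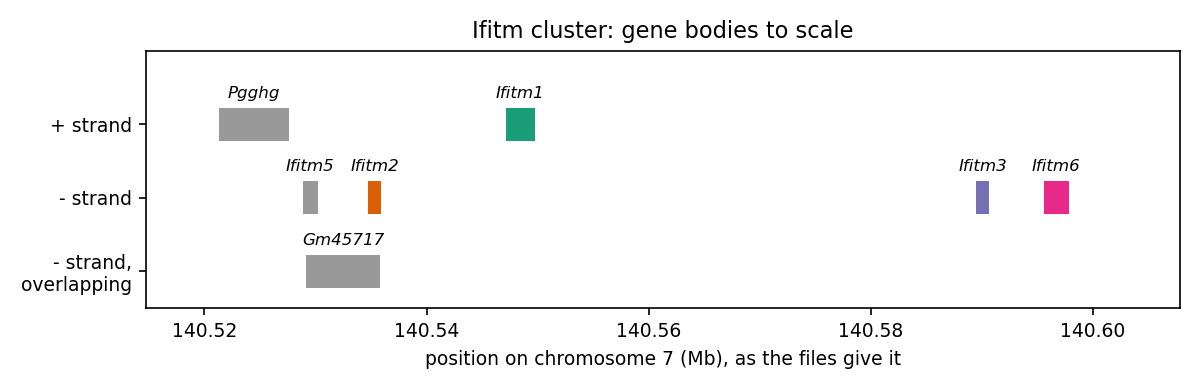
Gene bodies of the Ifitm cluster on chromosome 7, to scale, by strand, in the coordinates of the files; *Gm45717* is drawn on a row of its own because it overlaps *Ifitm2* and *Ifitm5*. The cluster of the 4 members spans 63088 bases.

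Within 250 kb of the cluster lie 30 other genes, of which 8 were over the TPM limit. In SiglecF lo cells 3 of the 8 were called higher without CD300a, *Pgghg* (0.99), *Bet1l* (0.93) and *Phrf1* (0.58), and 1 lower, *Hras* (-0.80), beside 16.4% and 19.9% of all genes, with a median of 0.06. In SiglecF hi cells *Phrf1* (0.53) was called higher and *Hras* (-0.54) lower, beside 3.31% and 3.46% of all genes. The call of *Phrf1* there was lost relative to the median gene, with 0 higher and 1 lower (all genes 2.64% and 4.09%). Between subsets 5 of the 8 were called higher in SiglecF hi cells of WT mice and 3 in *Cd300a-/-* mice, and 0 lower in either, beside 51.9% and 56.6% of all genes higher and 7.47% and 7.97% lower. Relative to the median gene 0 were higher in either (all genes 19.3% and 21.2%), and 1 was lower in WT and 2 in *Cd300a-/-* mice (all genes 20.9% and 23.6%). The interferon regulatory factor *Irf7*, which lies in this window, was at 212, 295, 201 and 189 TPM.

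Reads of related genes can be hard to place. The coding sequences of *Ifitm1*, *Ifitm2* and *Ifitm3* were 80.9% to 82.1% identical in pairs, and that of *Ifitm6* was 64.3% to 68.8% identical to the others (GENCODE M21 transcripts). Of all stretches of 75 bases in its transcripts, *Ifitm2* shared 42.0% with another annotated gene, *Ifitm3* 0.662%, *Ifitm1* 0.582% and *Ifitm6* 0%. With stretches of 36 bases the shares were 53.4%, 17.0%, 9.16% and 0%, of which sharing with another member made up 5.48%, 9.02%, 2.71% and 0% of all stretches. The genes that shared stretches of 75 bases with *Ifitm2* were *Gm45717*, *Gm11951*, *Gm2840*, *Gm45308* and *Gm8865*, and members shared none of that length with each other. *Gm45717*, which overlaps *Ifitm2* on the same strand, had 0, 3, 48 and 21 counts. How reads that fit several genes were treated, and whether strand was used, is not stated, so the level of *Ifitm2* is the least certain of the 4.

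The promoters were read for the DNA words of interferon signalling, because these members are interferon targets that did not move alike. RefSeq windows of 250 bases before to 50 after the start, on GRCm38.p6, matched all 4 members. The core of the interferon-stimulated response element (ISRE), GAAANNGAAA, and the gamma-activated site (GAS), TTCNNNGAA, were searched on both strands. *Ifitm2* held 1 ISRE core from 46 to 37 bases before the start. *Ifitm3* held 2 ISRE cores and 1 GAS just after the start, of which the GAS shares bases with the second core. *Ifitm6* held 1 GAS from 10 to 2 bases before the start, and *Ifitm1* held neither word. Of all 32851 windows 3.44% held the ISRE core and 8.30% the GAS, and of the 35 windows that matched the interferon-induced list 17 and 6 did. The stretches that hold the matches are shown 5′ to 3′ on the strand of the gene with the matches in capitals, for *Ifitm2* chr7:140955962-140956061 (minus strand), for *Ifitm3* chr7:141010715-141010744 (minus strand, the first 30 transcribed bases) and for *Ifitm6* chr7:141016893-141016992 (minus strand).
Ifitm2: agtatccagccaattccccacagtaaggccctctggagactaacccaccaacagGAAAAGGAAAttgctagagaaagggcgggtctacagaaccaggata
Ifitm3: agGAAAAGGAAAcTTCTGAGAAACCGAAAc
Ifitm6: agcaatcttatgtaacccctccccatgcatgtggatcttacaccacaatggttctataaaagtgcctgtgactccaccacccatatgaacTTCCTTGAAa
The word GAAAAGGAAA occurs in both *Ifitm2* and *Ifitm3*. A match of letters is a description and does not show that a factor binds there.

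For each member the 3 genes with the most similar profile were taken, by Euclidean distance between log2 values of TPM + 1 centred per gene over the 4 libraries. They were *Cd177*, *Ggt1* and *Mmp8* for *Ifitm6*, of which *Cd177* encodes a neutrophil surface protein and *Mmp8* the neutrophil collagenase. *Cd177*, the nearest at a distance of 0.26, was at 21.0, 75.9, 143 and 741 TPM, and so rose over the libraries in the same order as *Ifitm6*. For *Ifitm1* they included *Trpm2* (0.15) and *Mpzl3* (0.19). For *Ifitm2* they were the formyl peptide receptor *Fpr2* (0.07), the ectonucleotidase *Entpd1* and *Selenon*, and for *Ifitm3* the antiproliferative gene *Btg1* (0.02), *Palm* and *Rdh11*. Members were not each other's nearest genes: *Ifitm1* ranked 49 by distance from *Ifitm6*, and *Ifitm3* ranked 280 from *Ifitm2*. Other pairs were far apart: *Ifitm6* ranked 6202 from *Ifitm2* and 6475 from *Ifitm3*, and *Ifitm1* ranked 4141 from *Ifitm3*. With 4 libraries such a ranking only describes these values.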

How the data were processed

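RNA from sorted neutrophils (8 hearts pooled, 1 library per group) was poly(A) selected, sequenced and counted by the authors with CLC Genomics Workbench. The authors deposited raw counts and, normalised for length and depth, TPM and RPKM; the deposited signal column named CPM is proportional to the counts within a library and was not used. The submitters' processing notes name GRCm39. The annotation release, the treatment of multiply mapped reads and strand are not given in the sources used here.

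Log2 ratios of TPM + 1 were computed in Python 3.11.15 with pandas 2.3.3, over genes with a mean TPM over 10. Count ratios had exact conditional binomial 95% intervals (scipy 1.17.1), and the family sum a weighted Poisson interval; both were tested on simulated data. Alternatives were a pseudocount of 0.1, TMM factors (edgeR 4.0.16), DESeq2 1.42.0 size factors, RPKM, centring and other limits. Sequences came from RefSeq (GRCm38.p6) and GENCODE M21, aligned with Biopython 1.88. Members and gene lists were chosen with earlier results of these data known. Named were, in each list and comparison, the genes past 0.5 with the 4 largest and 4 smallest ratios, receptors, STAT and IRF genes, the neighbours called and the 3 nearest profiles; not all of these are given here.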

Additional observations from a re-analysis of the deposited data

Results flagged for a closer look

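*Ifitm3* was the one member for which loss of CD300a went with ratios of opposite sign in the subsets, at -0.18 in SiglecF lo and 0.09 in SiglecF hi cells, a difference of -0.27 on the log2 scale. Of the 6523 genes, 33.4% had a lower difference than *Ifitm3*. Further genes of the lists had ratios of opposite sign with counting intervals that excluded 0. The share of all genes with such opposite signs was not counted, so these genes cannot be set against it. Only some of them are given here, taken from the receptor, STAT and IRF genes and from the genes past 0.5 with the 4 largest or 4 smallest ratios of a list in a comparison. They are given by the same difference, the genotype ratio in SiglecF lo minus that in SiglecF hi cells. With 1 library per group none of these differences was tested.

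Of the interferon-induced genes, *Ifit1* had -1.65, *Ifit2* -1.60, *Herc6* -0.99, *Rtp4* -0.70 and *Oas3* -0.32, each lower without CD300a in SiglecF lo and higher in SiglecF hi cells. *Phf11d* had 0.79, with the opposite signs. *Samd9l* had -0.40 and was higher without CD300a in both subsets. Its ratio between subsets by TPM was -0.14 in WT and 0.26 in *Cd300a-/-* mice. This opposite sign was not kept with TMM factors. Its TMM-scaled level was lower in SiglecF hi than in SiglecF lo cells of WT (146 against 235) and *Cd300a-/-* mice (219 against 274). The transcription factors *Stat2* (-0.91), *Irf7* (-0.56) and *Irf1* (-0.42) were, like *Ifit1*, lower without CD300a in SiglecF lo and higher in SiglecF hi cells. The ratios of *Irf7* (-0.09) and *Oas3* (-0.12) in SiglecF lo cells were small. With TMM factors *Irf7* was at 285 in WT and 272 in *Cd300a-/-* SiglecF lo cells. Whether their intervals exclude 0 under other scalings was not examined.

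Among the other restriction factors, *Ch25h* had 2.25 and *Trim25* 0.79, higher without CD300a in SiglecF lo and lower in SiglecF hi cells, and *Serinc5* had -0.94 with the signs exchanged. *Ch25h* was at 21.6, 13.7, 7.58 and 25.4 TPM in WT SiglecF hi, *Cd300a-/-* SiglecF hi, WT SiglecF lo and *Cd300a-/-* SiglecF lo neutrophils. Among the partners of IFITM proteins, *Ap2b1* had 1.15 and *Cd9* -0.53.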

How the results depend on the processing

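The direction of the family sum and of each member was kept in all 4 comparisons under every alternative tried. The sums with TMM factors and with DESeq2 size factors were of counts not normalised for length. They therefore also weighed the members differently, and the 2 changes were not separated. Single members without CD300a in SiglecF lo cells were at 0.81 (*Ifitm1*), 0.34 (*Ifitm2*), -0.16 (*Ifitm3*) and 2.34 (*Ifitm6*) with TMM factors. By TPM they were at 0.78, 0.31, -0.18 and 2.32. The family sum without CD300a in SiglecF lo cells (0.53) was 0.64 with TMM factors, 0.67 with DESeq2 size factors, 0.44 with RPKM, which is within the limit of 0.5, and 0.68 without *Ifitm2*; in SiglecF hi cells (0.16) it was 0.12 with RPKM and 0.12 when centred on the median of all genes. Between subsets in WT mice (-0.95) it was -1.56 with TMM factors, -1.62 with DESeq2, -1.20 with RPKM, -1.48 centred and -1.03 without *Ifitm2*; in *Cd300a-/-* mice (-1.32) it was -2.05, -2.13, -1.53, -1.93 and -1.55. The difference of genotype ratios between subsets (0.37) was 0.49, 0.51, 0.33, 0.42 and 0.52 in the same order. *Ifitm3* between subsets in *Cd300a-/-* mice (-0.40) passed the limit with TMM factors (-0.98), DESeq2 (-1.07), RPKM (-0.61) and centring (-1.01), and no other member changed its call. The median of the interferon-induced genes between subsets in *Cd300a-/-* mice (0.35) turned to -0.20 with TMM factors, -0.29 with DESeq2 and -0.27 centred; the cause was not tested. Genes called without CD300a in SiglecF lo cells numbered 2367, against 5178 at a mean TPM over 1 and 611 at a log2 limit of 1; in SiglecF hi cells 442, against 1716 and 46, and 709 at over 10 TPM in at least 1 library. Between subsets they numbered 3873 in WT, against 7317 and 1520, and 4212 in *Cd300a-/-* mice, against 7619 and 1975. The alternatives for the difference and the centred interferon median were chosen after seeing the data. No paired analysis was possible because each group has 1 library and no result comes from a test.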
